A study of Mus musculus with 32 samples.

Results

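Expression of the Hox genes was examined in mouse spinal cord, sham-operated or injured. The members were all genes of the deposited count table whose symbol is Hox, a cluster letter from a to d and a number, and they came to 39 of 23420 genes. All 39 had at least 1 read in at least 1 library. Bulk RNA-seq had been made from 32 libraries in 10 groups, and the mice were C57BL/6J, aged 8-12 weeks. Sham cords were taken at 3 and 35 days (3 libraries each), with no sham group at 14 days. Injured cords with the control treatment were taken at 3, 14 and 35 days after injury (3, 3 and 4 libraries). Injured cords with Gsx1 were taken at the same 3 times (3, 3 and 4 libraries), and injured cords with Nkx6.1 at 3 and 35 days (3 libraries each). Both factors are homeodomain proteins that specify neuron types in the embryonic cord, and the series was titled for locomotor recovery with Gsx1. The tissue was the cord around the lesion, reaching about 2-3 mm to each side of it, and all groups except sham shared the injury. The labels do not give the vertebral level, the injury method, the way Gsx1 and Nkx6.1 were delivered, the number of mice per library or their sex.

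Hox genes encode homeodomain transcription factors that give cells their position along the body axis. They lie in 4 clusters, and members with the same number in different clusters are paralogs of each other. Within a cluster, genes with low numbers are expressed from the hindbrain and neck downwards, and genes with higher numbers begin further towards the tail. Adult cord neurons and glia keep much of this pattern. In the embryonic cord Hoxa5 and Hoxc6 mark brachial levels, Hoxc9 thoracic levels, and Hoxc10 and Hoxd10 lumbar levels, while genes of groups 11 to 13 mark the caudal end. Polycomb proteins hold the silent part of each cluster closed, and retinoic acid, Wnt, Fgf and Gdf11 signals set the pattern in the embryo.

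In the GENCODE annotation of GRCm38 the 11 Hoxa genes spanned chr6:52155590-52260880, the 10 Hoxb genes chr11:96194316-96368256, the 9 Hoxc genes chr15:102921103-103036852 and the 9 Hoxd genes chr2:74668310-74765142. RefSeq promoters were read as the 250 bases before the start of a gene (GRCm38.p6), and 18 of the 34 members that passed the filter on low counts had an entry. TTTATG, searched on both strands as a core sequence bound by caudal Hox and Cdx proteins, was found in 5 of these 18 and in 10.8% of all 32851 promoters. TGATTNAT, a joint Hox and Pbx sequence, was found in 1 of them, Hoxa2, and in 2.82% of all promoters. The 18 promoters held a median of 12 CpG dinucleotides, against 6 over all promoters. The promoters of 4 members are shown, each read along its gene's strand. Hoxd10 and Hoxd11 are neighbours between which the level in the cord fell, Hoxb8 was the most abundant member, and Hoxa7 was called under every alternative tried in 2 comparisons. The 2 comparisons share the injured controls at 3 days and are not independent. Capitals mark TTTATG or its reverse complement.
Hoxd10, chr2:74691641-74691890, plus strand: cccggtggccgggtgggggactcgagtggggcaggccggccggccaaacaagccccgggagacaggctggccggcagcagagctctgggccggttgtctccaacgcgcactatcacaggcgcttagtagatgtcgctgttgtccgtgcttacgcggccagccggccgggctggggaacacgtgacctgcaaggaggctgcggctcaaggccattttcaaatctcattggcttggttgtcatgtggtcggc
Hoxd11, chr2:74679308-74679557, plus strand: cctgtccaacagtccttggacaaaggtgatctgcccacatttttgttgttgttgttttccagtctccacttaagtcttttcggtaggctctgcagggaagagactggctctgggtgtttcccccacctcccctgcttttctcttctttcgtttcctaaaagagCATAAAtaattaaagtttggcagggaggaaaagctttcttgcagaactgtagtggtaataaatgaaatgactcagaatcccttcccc
Hoxb8, chr11:96281655-96281904, plus strand: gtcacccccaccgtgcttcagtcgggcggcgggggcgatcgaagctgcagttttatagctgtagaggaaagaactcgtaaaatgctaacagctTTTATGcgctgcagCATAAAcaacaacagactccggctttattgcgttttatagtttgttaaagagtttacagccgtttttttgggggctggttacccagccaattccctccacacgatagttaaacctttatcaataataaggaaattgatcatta
Hoxa7, chr6:52218574-52218823, minus strand: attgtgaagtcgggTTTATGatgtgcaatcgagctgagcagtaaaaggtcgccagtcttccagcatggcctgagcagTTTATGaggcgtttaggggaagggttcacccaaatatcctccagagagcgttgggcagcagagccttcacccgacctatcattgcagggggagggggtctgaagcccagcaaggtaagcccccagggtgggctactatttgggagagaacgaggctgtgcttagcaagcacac
The Hoxd10 window held 20 CpG dinucleotides and the Hoxd11 window 2. TTTATG matched at 2 places in the Hoxb8 window, 2 in that of Hoxa7 and 1 in that of Hoxd11, and at none in that of Hoxd10.

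The libraries held 10.82 to 19.51 M counts (M for mega, with a median of 14.63), and Hox genes took 0.0437% to 0.1152% of them. In 2 libraries, sham at 3 days replicate 1 and injured control at 35 days replicate 4, reads were found for both Xist (503 and 676 CPM), which female cells transcribe, and the Y-linked Ddx3y (19.1 and 32.1 CPM). Without these 2 libraries the count of members called, described below, was 6 in place of 10 for injury at 3 days, 2 in place of 3 at 35 days and 4 in place of 7 over time in injured controls, and it was 0 with and without them by edgeR in the other comparisons. Xist was above 100 CPM in 7 libraries in all, in sham and injured control groups and in 1 Nkx6.1 library. Reads of Gsx1 were few in every group. At 3, 14 and 35 days it stood at 0.156 ± 0.0881, 0.424 ± 0.247 and 0.304 ± 0.174 CPM with Gsx1 (SD, n = 3, 3 and 4), and at 0.323 ± 0.105, 0.164 ± 0.0678 and 0.152 ± 0.145 CPM in injured controls (SD, n = 3, 3 and 4). Nkx6-1 stood at 5.15 ± 1.34 and 9.55 ± 2.45 CPM with Nkx6.1 at 3 and 35 days (SD, n = 3 each), against 7.85 ± 1.02 and 11.0 ± 1.26 CPM in injured controls (SD, n = 3 and 4). At 3 days both were thus lower in the groups labelled with the factor, without overlap for Nkx6-1 (log2 -0.6 ± 0.23 SE, edgeR adjusted p 0.176). The 2 genes therefore do not bear out the labels at 3 days. The mean of Nkx6-1 was also lower at 35 days. That of Gsx1 was higher with Gsx1 at 14 and 35 days, on few counts (20 and 18 summed against 7 and 8). Gsx1 and Nkx6.1 below stand for the libraries labelled so, and whether delivered transcripts would be counted under these symbols is not given in the sources used here. Neuron markers were present in every group, with the 8 genes summing to 9840 to 11600 CPM in sham cords and 2740 to 9120 in injured cords.

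In sham cord the 12 Hox genes with the highest levels were all of paralog groups 5 to 10, and levels dropped steeply at group 11. Levels here are CPM per kb of exon, so that genes of different length can be compared. Hoxb8, a homeodomain factor with a known role in the dorsal horn, had the highest level at 101 ± 12.4 CPM per kb (SD, n = 6 sham libraries), and Hoxb9 followed at 41.5 ± 3.95 (SD, n = 6). No other member came within the spread of Hoxb8. Hoxc10, the lumbar factor of its cluster, stood at 34.6 ± 4.85 (SD, n = 6), Hoxc8 at 26.1 ± 2.11 and Hoxb6 at 24.2 ± 1.62 (SD, n = 6 each). Each of the next 4 members differed from its neighbour in this order by less than its SD: Hoxa5 at 20.5 ± 2.16, Hoxd8 at 19.3 ± 2.88, Hoxd9 at 18.0 ± 2.1 and Hoxb7 at 17.8 ± 1.08 CPM per kb (SD, n = 6 each). Hoxb5 followed at 15.5 ± 1.26, and Hoxa7 (13.7 ± 1.12) and Hoxa10 (13.3 ± 1.57) lay within each other's spread (SD, n = 6). Members of groups 1 to 4 reached at most 9.78 ± 1.12 CPM per kb (Hoxd4, SD, n = 6). Some members of groups 5 to 10 lay below Hoxd4, with Hoxa6, Hoxd10, Hoxc9, Hoxc6 and Hoxa9 at 8.74 to 7.06 CPM per kb and Hoxc5 at 1.45 ± 0.31 (SD, n = 6).

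**Figure D1:**
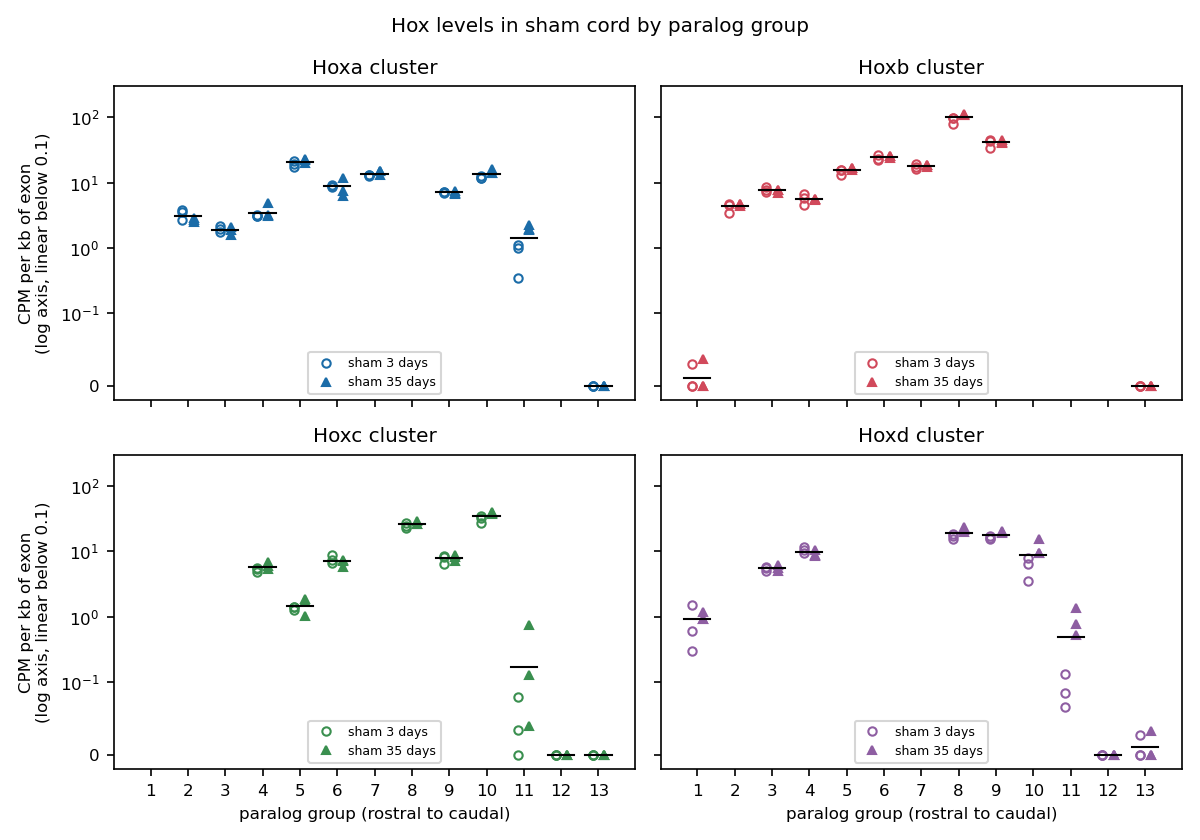
Level of Hox genes in the 6 sham libraries, in CPM per kb of exon on a log axis that is linear below 0.1, against paralog group in each of the 4 clusters. Circles are sham at 3 days, triangles sham at 35 days and the black line is the mean; levels fell steeply between paralog groups 10 and 11 in the Hoxa, Hoxc and Hoxd clusters.

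The drop at the caudal end was steep in all 3 clusters that hold genes of group 11. In sham cords Hoxa10 stood at 13.3 ± 1.57 CPM per kb and Hoxa11 at 1.42 ± 0.722 (SD, n = 6). Hoxc10 stood at 34.6 ± 4.85 and Hoxc11 at 0.168 ± 0.279 CPM per kb. Hoxd10 stood at 8.62 ± 3.93 and Hoxd11 at 0.485 ± 0.506. In the Hoxb cluster, which has no members of groups 10 to 12, the last gene at more than 1 CPM was Hoxb9 in all 32 libraries. Hoxc12, Hoxc13, Hoxa13, Hoxb13 and Hoxd12 had 0 counts in all 6 sham libraries, which allows up to 0.0726 CPM at 3 days and 0.0816 CPM at 35 days, counting error only. The 5 members that did not pass the filter on low counts and were not tested were Hoxa13, Hoxb1, Hoxb13, Hoxd12 and Hoxd13, with at most 11 counts in a library. Hoxc12 and Hoxc13 were tested, and passed through the libraries where they were high. Exons of Hoxc5 and Hoxc10 share 166 bases and those of Hoxd3 and Hoxd4 share 388, and how reads there were assigned is not given in the sources used here.

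Hoxc12, the gene next towards the tail from Hoxc11, was either present or all but absent. It had 7 to 70 counts in 12 libraries and 0 or 1 count in the other 20. In sham cords it was at 0 in 3 of 3 libraries at 3 days and 3 of 3 at 35 days. In injured controls it stood at 0, 0 and 3.62 CPM at 3 days, at 4.46, 1.87 and 0.481 CPM at 14 days, and at 0, 0, 0.0738 and 0 CPM at 35 days. All 3 libraries at 14 days held it and no library at 35 days did beyond 1 count. With Gsx1 it stood at 0, 0 and 0.816 CPM at 3 days, at 1.24, 0 and 0 CPM at 14 days, and at 3.46, 0, 1.45 and 0 CPM at 35 days. With Nkx6.1 it stood at 0, 0 and 3.07 CPM at 3 days and at 3.5, 4.91 and 4.48 CPM at 35 days. Presence therefore varied between libraries of 1 group in 5 of the 8 injured groups. The limit of 5 counts used to count libraries was chosen after the values were seen.

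Hoxd11, which with Hoxa11 patterns the caudal body, varied in the same libraries. In sham cords it stood at 0.355, 0.555 and 0.273 CPM at 3 days and at 2.19, 3.22 and 5.66 CPM at 35 days. In injured controls it stood at 0, 2.12 and 15.9 CPM at 3 days, at 21.0, 20.1 and 5.63 CPM at 14 days, and at 4.22, 2.83, 0.664 and 0.297 CPM at 35 days. The 3 libraries at 3 days thus ran from 0 to 15.9 CPM, and the highest library of the series stood at 21.5 CPM. With Gsx1 it stood at 0.0582, 0.3 and 16.4 CPM at 3 days, at 11.7, 4.07 and 0.133 CPM at 14 days, and at 10.9, 1.4, 11.0 and 0.329 CPM at 35 days. With Nkx6.1 it stood at 0.308, 1.75 and 7.27 CPM at 3 days and at 14.6, 21.5 and 17.0 CPM at 35 days. In each injured 3-day group replicate 3 was the highest library for Hoxd11, and these were also the 3 libraries of that time with Hoxc12. The replicate numbers are not known to pair the samples.

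**Figure D2:**
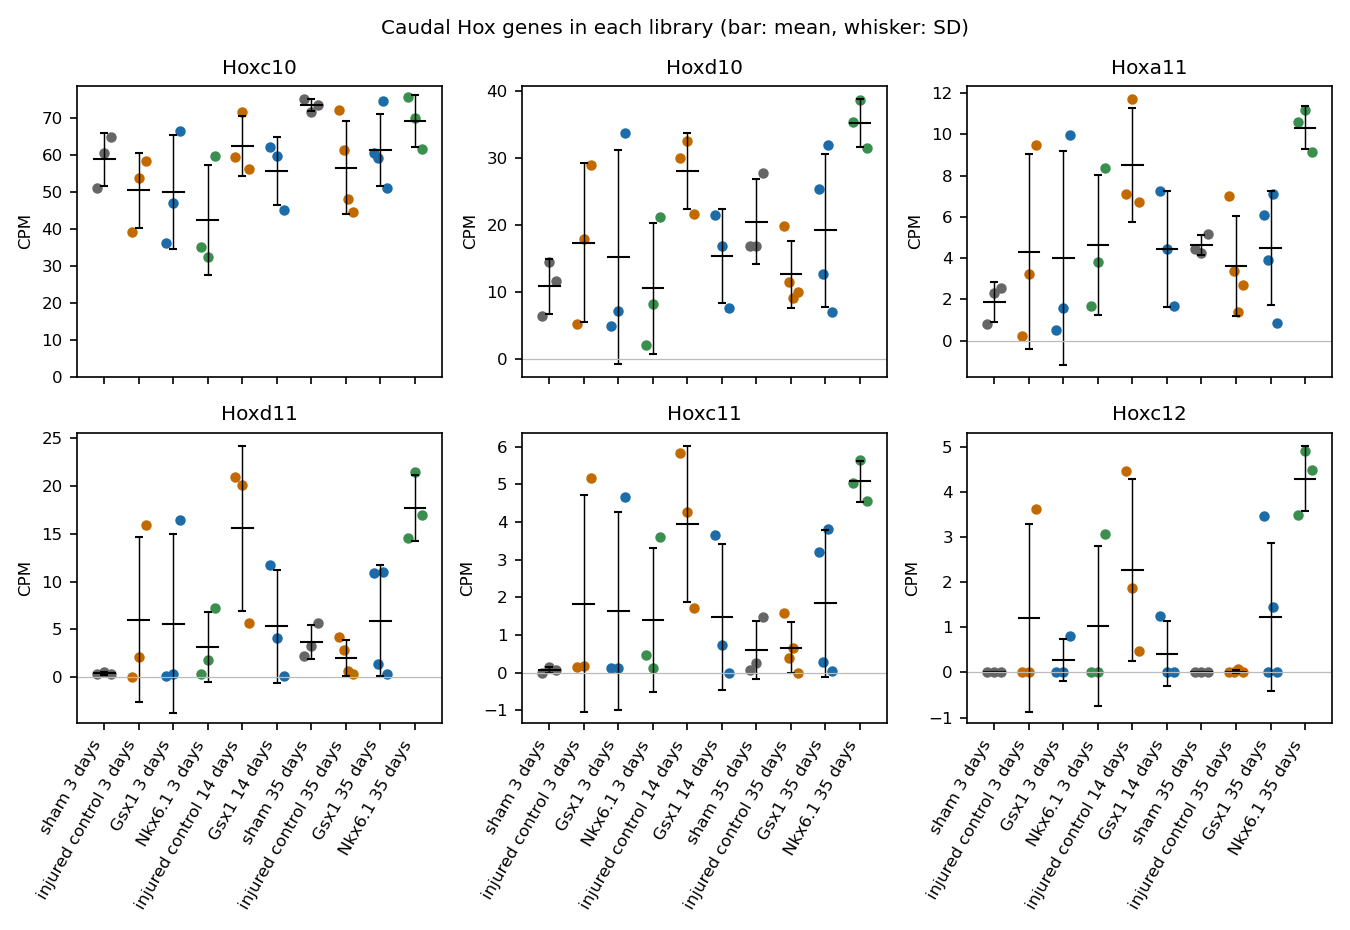
CPM of 6 caudal Hox genes in each of the 32 libraries, by group; points are libraries, the bar is the group mean and the whisker the SD. In 6 of the 8 injured groups Hoxd11 ran from under 1 CPM to over 4 CPM, while for Hoxd11, Hoxc11 and Hoxc12 the 3 Nkx6.1 libraries at 35 days were all high and the 3 sham libraries at 3 days all low.

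The same libraries were high across the 3 clusters. The 12 libraries with Hoxc12 were also the 12 highest for Hoxc11, and 11 of them were among the 12 highest for Hoxa11, for Hoxd10, for Hoxd11 and for Hoxc13. For Hoxc10 7 of the 12 were among its 12 highest libraries, for Hoxa10 5, and for Hoxa9 and Hoxa7 3 and 2. At the other end, 9 of these 12 were among the 12 lowest libraries for Hoxc8 and 8 among the 12 lowest for Hoxc6. Such counts pool all groups, and no sham library was among the 12, so differences between groups enter them. Sets of 12 out of 32 libraries also overlap in part without any relation. With group means removed, as described below, Hoxc8 had a Pearson r of -0.45 with Hoxd11 (rho -0.41, adjusted permutation p 0.12). Hotair, a noncoding RNA that lies opposite in strand between Hoxc11 and Hoxc12, had the same 12 libraries at its top, at 0.893 to 6.98 CPM. Hoxa11as, the antisense partner of Hoxa11, shared 11 of them, and without a stated strand setting reads of Hoxa11 and Hoxa11as cannot be told apart.

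Counted as the most caudal gene at 1 CPM or more, a limit chosen after the values were seen, the Hoxc cluster ended at Hoxc10 in 18 libraries, at Hoxc11 in 4, at Hoxc12 in 2 and at Hoxc13 in 8. The Hoxd cluster ended at Hoxd10 in 11 libraries and at Hoxd11 in 21. The Hoxa cluster ended at Hoxa10 in 4 libraries and at Hoxa11 in 28. In the sham libraries at 3 days the end was Hoxc10 and Hoxd10 in 3 of 3. In the Nkx6.1 libraries at 35 days it was Hoxc13 and Hoxd11 in 3 of 3. Whether the libraries were cut from different cord levels was not tested, and no label gives the level.

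Spread between replicates separated the caudal members from the rest. The biological coefficient of variation of single genes, the spread between libraries of 1 group beyond counting error, was 200.8% for Hoxc12, 128% for Hoxc13, 123.4% for Hoxc11, 116.3% for Hoxd11, 71.3% for Hoxa11 and 55.4% for Hoxd10. These values lay at the 95th percentile (Hoxd10) to the 100th percentile (Hoxc12) of the 16314 genes tested, whose median was 16.9%. Of the other 28 members tested, 26 lay between 10.9% (Hoxd8) and 24% (Hoxc5), and the thinly counted Hoxd1 at 39.1%. Between Hoxd10 (55.4%) and its neighbour Hoxd9 (22.6%) the spread rose steeply, whereas Hoxa10 stood at 17.3% and Hoxc10 at 18.9%. A group mean of Hoxd11, Hoxc11 or Hoxc12 therefore carries an SD close to or above the mean in most injured groups, for example 5.99 ± 8.61 CPM for Hoxd11 in injured controls at 3 days (SD, n = 3).

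Hoxc10, expressed at 32.3 to 75.6 CPM in every library, was taken as the reference for how members moved together within groups. Each value was log2(CPM + 0.5) less its group mean, so differences between groups were removed, and libraries share depth and composition across genes. Over 32 libraries 10 of the 33 other members correlated with Hoxc10, all positively, at a permutation p adjusted over the 33 (100000 permutations within groups). Hoxa11 had the highest Pearson r at 0.86 (Spearman's rho 0.9, permutation p 1e-05, the smallest that the draws can give, adjusted 0.00025), and its r without the 2 libraries farthest from the median was 0.84. Hoxd9 and Hoxd10 had r of 0.84 each (rho 0.84 and 0.83), Hoxd11 0.81 (rho 0.8), Hoxa10 0.8 (rho 0.76) and Hoxc11 0.76 (rho 0.76), with adjusted permutation p of 0.00082 or less. Without the 2 farthest libraries these 5 had r of 0.79, 0.78, 0.77, 0.74 and 0.69. Also among the 10 were 3 Hoxb genes of lower number, Hoxb5 at 0.68, Hoxb8 at 0.67 and Hoxb6 at 0.63 (adjusted permutation p 0.0015, 0.0056 and 0.0056). The last of the 10 was Hoxc12, for which no r is given because its libraries fall into 2 sets.

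Hoxd11 and Hoxb8, added as references after the data were seen, gave different partners. With Hoxd11 the r was 0.92 for Hoxc11 and for Hoxd10, 0.91 for Hoxa11, 0.81 for Hoxc10, 0.65 for Hoxa10 and 0.55 for Hoxd9 (rho 0.89, 0.9, 0.87, 0.8, 0.68 and 0.57; adjusted permutation p 0.024 or less). Hoxc6 correlated negatively, at r = -0.51 (rho -0.44, adjusted permutation p 0.032), and its r without the 2 farthest libraries was -0.45. With Hoxb8 the r was 0.9 for Hoxb6, 0.89 for Hoxb5, 0.86 for Hoxb9 and 0.78 for Hoxb7 (rho 0.84, 0.84, 0.85 and 0.69; adjusted permutation p 0.014 or less), and 4 further members passed. Hoxb8 and Hoxc10 also moved with cell type markers: the mean of 8 neuron markers had r of 0.65 with Hoxb8 and 0.64 with Hoxc10 (adjusted permutation p 0.02 and 0.013), and the mean of 5 macrophage markers r of -0.61 and -0.54 (adjusted permutation p 0.02 and 0.013). With Hoxd11 the neuron mean had r of 0.34 (rho 0.28) and the macrophage mean r of -0.39 (rho -0.39), each at an adjusted permutation p of 0.096. With the neuron mean regressed out of all deviations, all 10 members passed again with Hoxc10, 8 of the 9 with Hoxd11 (all but Hoxc6) and 6 of the 8 with Hoxb8 (all but Hoxa9 and Hoxa10). Without the 2 libraries that held both Xist and Ddx3y, 7 of the 9 passed with Hoxd11 (all but Hoxc6 and Hoxd9).

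**Figure D3:**
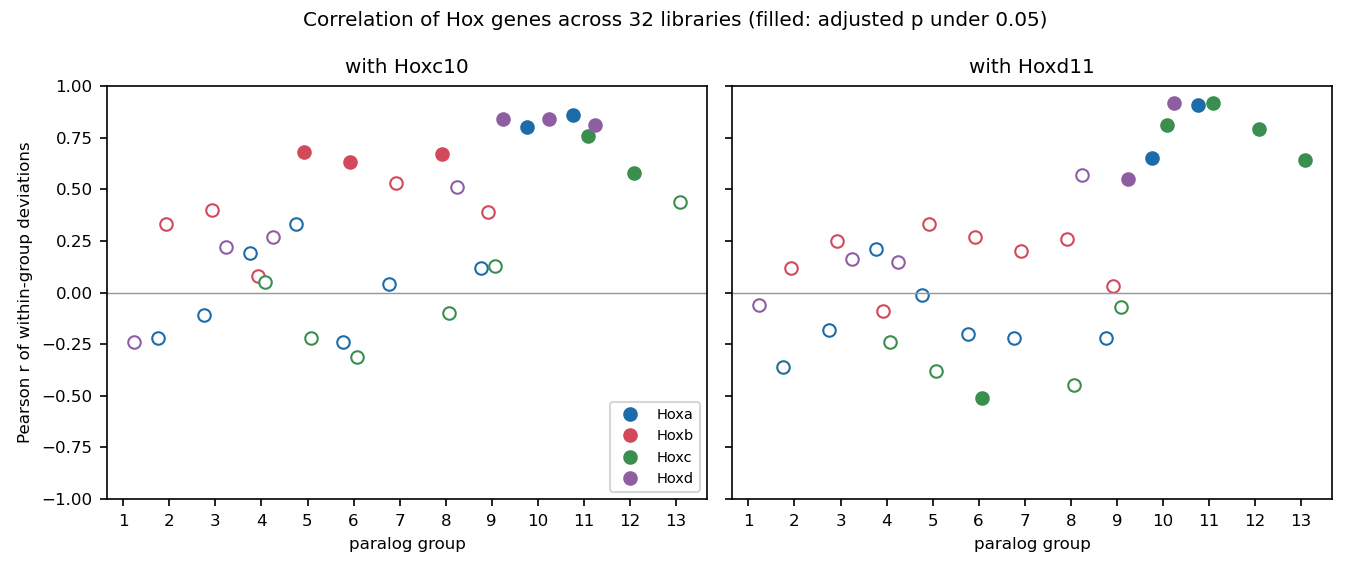
Pearson r of within-group deviations in log2(CPM + 0.5) over 32 libraries, for Hox genes with Hoxc10 (left) and Hoxd11 (right), against paralog group. Filled points had an adjusted permutation p under 0.05; with Hoxd11 the filled points were paralog groups 9 to 13, at r from 0.55 to 0.92, and Hoxc6 at -0.51.

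At 3 days after injury 10 Hox genes were lower than in sham cord, 9 of them among the 15 tested members of paralog groups 5 to 9 and 1 among the other 19. Of the 34 members tested, 10 fell and 0 rose at an adjusted p under 0.05, that is 29.4%, where 16% of all genes tested fell and 19.5% rose. The median log2 fold change was -0.36 over the members and 0.01 over all genes, and it was also -0.36 with the 3 members at 3 counts or fewer in a group set to their bound. The 10 were Hoxa5, Hoxa6, Hoxa7, Hoxa9, Hoxb2, Hoxb5, Hoxb6, Hoxb8, Hoxb9 and Hoxd8. No Hoxc gene was among them, though Hoxc9 (adjusted p 0.0554), Hoxc4 (0.0684) and Hoxc8 (0.0707) had fold changes of -0.53, -0.52 and -0.53. Hoxc5 and Hoxc6, also of the middle groups, stood at 0.14 and -0.12.

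Hoxa9, a regulator of trunk patterning and blood progenitors, stood at 39.7, 40.3 and 39.0 CPM in sham cords and at 21.7, 26.7 and 22.3 CPM in injured controls at 3 days. The groups did not overlap, and the log2 fold change was -0.75 ± 0.14 (SE, adjusted p 0.000271). Hoxa7 stood at 38.1, 37.3 and 36.4 CPM in sham cords and at 20.5, 22.3 and 22.9 CPM in injured controls. Its log2 fold change was -0.77 ± 0.17 (SE, adjusted p 0.00121), with no overlap. Hoxb8 stood at 209, 257 and 256 CPM in sham cords and at 126, 143 and 115 CPM after injury, also without overlap. Its log2 fold change was -0.91 ± 0.28 (SE, adjusted p 0.0125), the largest fall among the 10. Hoxd8 fell least, from 46.7, 51.2 and 42.8 CPM to 33.4, 38.2 and 38.0 CPM (log2 -0.36 ± 0.12 SE, adjusted p 0.0264). The remaining 6 members fell by amounts between these. Hoxb9 fell by 0.87 ± 0.26 on the log2 scale (adjusted p 0.0112), Hoxb6 by 0.87 ± 0.23 (0.00476), Hoxb5 by 0.84 ± 0.24 (0.00757) and Hoxa6 by 0.75 ± 0.28 (0.0407). Hoxa5 (-0.56 ± 0.19, adjusted p 0.0243) and Hoxb2 (-0.54 ± 0.19, adjusted p 0.0251) fell less. In all, 18 members had no overlap between the groups with lower values after injury and 0 with higher, where 27.6% of all genes did so downwards and 28% upwards.

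**Figure D4:**
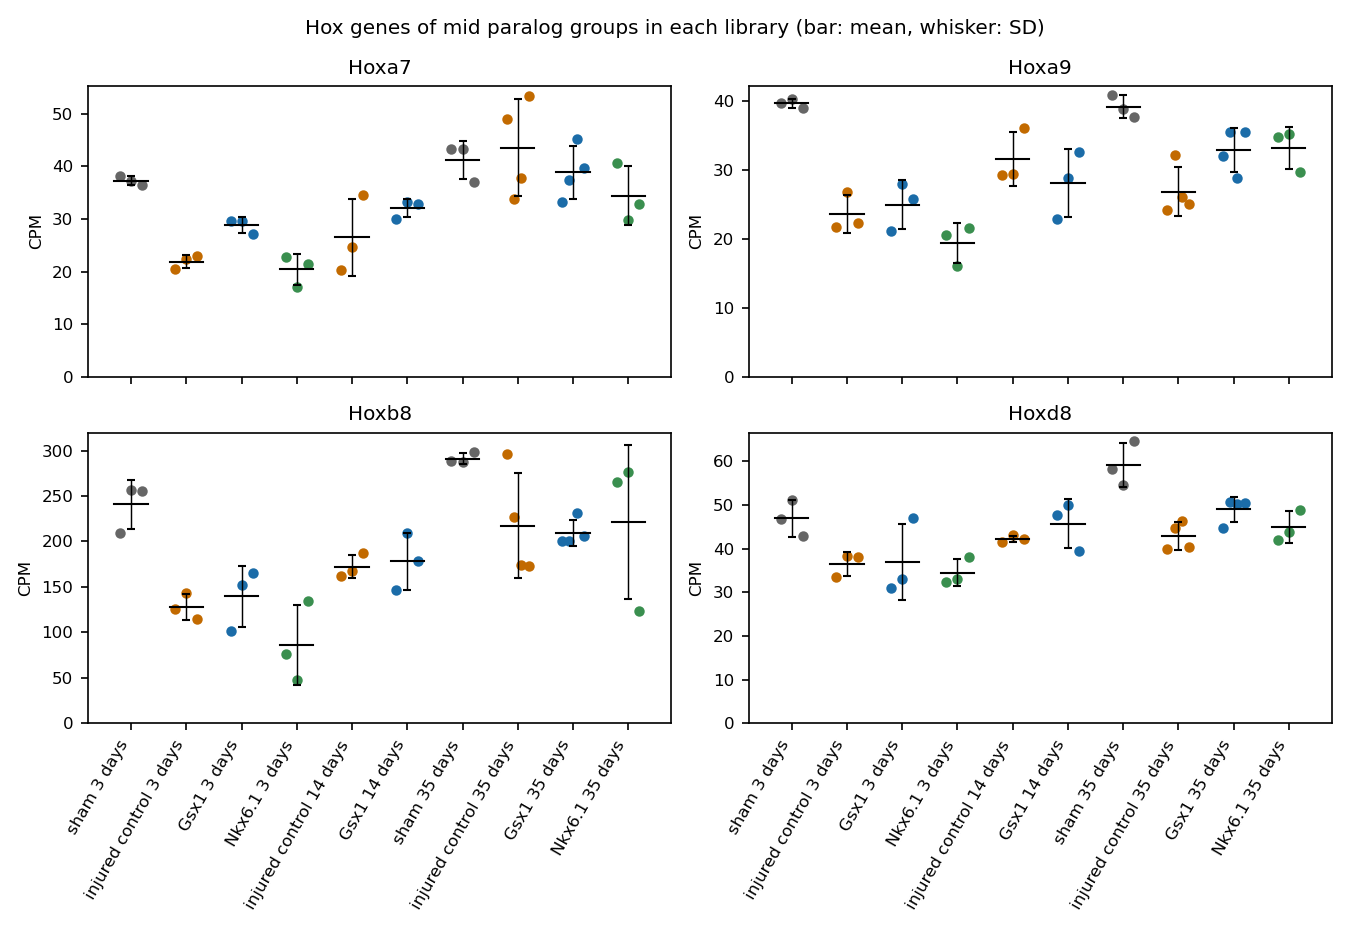
CPM of Hoxa7, Hoxa9, Hoxb8 and Hoxd8 in each of the 32 libraries, by group; points are libraries, the bar is the group mean and the whisker the SD. At 3 days all injured control and Nkx6.1 libraries lay below all sham libraries for these 4 genes.

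Cell type markers moved in the same comparison. All 8 neuron markers fell (median log2 -0.94, summed level 9840 to 10600 CPM in sham cords and 4440 to 6160 CPM after injury), and all 5 macrophage markers rose (159 to 194 CPM against 3750 to 6520 CPM). All 5 fibroblast markers also rose (154 to 344 against 488 to 1860 CPM), as did 4 of 5 astrocyte markers (2890 to 3570 against 8320 to 8940 CPM). Of 7 skeletal muscle markers 5 were called as higher (2.73 to 3.89 against 2.56 to 267 CPM). The muscle sums were 17.7, 2.56 and 267 CPM in injured control replicates 1, 2 and 3, so replicate 2 lay below all sham libraries. None of the neuron, macrophage and fibroblast markers was at 0 in either group, and Tnnc2 of the muscle list was at 0 in sham cords. In a bulk segment fewer cells of a type and less RNA per cell cannot be told apart. With the neuron mean as a covariate, added after the data were seen, 1 member was called, Hoxa7 at -0.84 (adjusted p 0.0261), and the others kept their direction: Hoxa9 stood at -0.5 (adjusted p 0.12) and Hoxb8 at -0.12 (adjusted p 0.929). Hoxa6 lost its call at a larger fall, -0.91 (adjusted p 0.228). The neuron sums did not overlap between the groups, so the fit can hardly separate covariate from injury. A lost call therefore assigns no cause. The count was 6 without sham replicate 1, 4 without injured control replicate 1, 5 without injured control replicate 3, 6 without the 2 libraries that held both Xist and Ddx3y, and 16 when only these 2 groups entered the fit. Hoxa7 was called under all 16 alternatives, and Hoxa9 and Hoxb6 under 15.

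No member of paralog groups 10 to 13 was called by edgeR in this comparison. Hoxa10 had a log2 fold change of -0.17 ± 0.2 and Hoxc10 of -0.22 ± 0.22 (SE). Hoxd10 stood at 6.39, 14.4 and 11.6 CPM in sham cords and at 5.21, 17.9 and 28.9 CPM in injured controls, and the groups overlapped. Hoxd11 had a fold change of 3.9 ± 1.73 (SE, adjusted p 0.0783), and its groups overlapped, since replicate 1 of the injured controls had a count of 0. DESeq2 called Hoxd11, Hoxc11 and Hoxc13 as higher beside the same 10 lower genes. Whether the middle and the caudal members differed in their response was not tested.

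At 35 days after injury 3 of 34 members were called (8.82%, where 36.8% of all genes tested were called). Hoxa9 stood at 40.9, 38.8 and 37.6 CPM in sham cords and at 24.2, 32.1, 26.0 and 25.0 CPM in injured controls. It did not overlap, at log2 -0.54 ± 0.13 (SE, adjusted p 0.00273). Hoxd8 stood at 58.1, 54.6 and 64.7 CPM in sham cords and at 40.0, 44.6, 46.4 and 40.4 CPM in injured controls. It did not overlap either, at log2 -0.47 ± 0.12 (SE, adjusted p 0.00339). These 2 were the members without overlap, both lower, where 18% of all genes were lower without overlap. Hoxb4 was called as higher (log2 0.6 ± 0.23 SE, adjusted p 0.0429), with 14.3, 13.7 and 14.3 CPM in sham cords and 28.2, 13.6, 13.1 and 30.7 CPM in injured controls, so that 2 of the 4 libraries were high and 2 below all sham libraries. Of the 8 neuron markers 6 fell in this comparison (11300 to 11600 against 4090 to 8240 CPM summed), and all 5 macrophage markers rose (139 to 174 against 1480 to 3320 CPM). All 5 fibroblast markers rose too (73.4 to 84.6 against 195 to 2160 CPM), as did 4 of 5 astrocyte markers (2420 to 3230 against 6460 to 11500 CPM) and 4 of 5 Schwann cell markers (97.9 to 151 against 160 to 1130 CPM). With the neuron mean as a covariate 0 members were called by edgeR's test, but the neuron sums did not overlap here either, so the same limit holds. Without injured control replicate 2 the count was 6, and the share of all genes called in that fit was not computed.

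**Figure D5:**
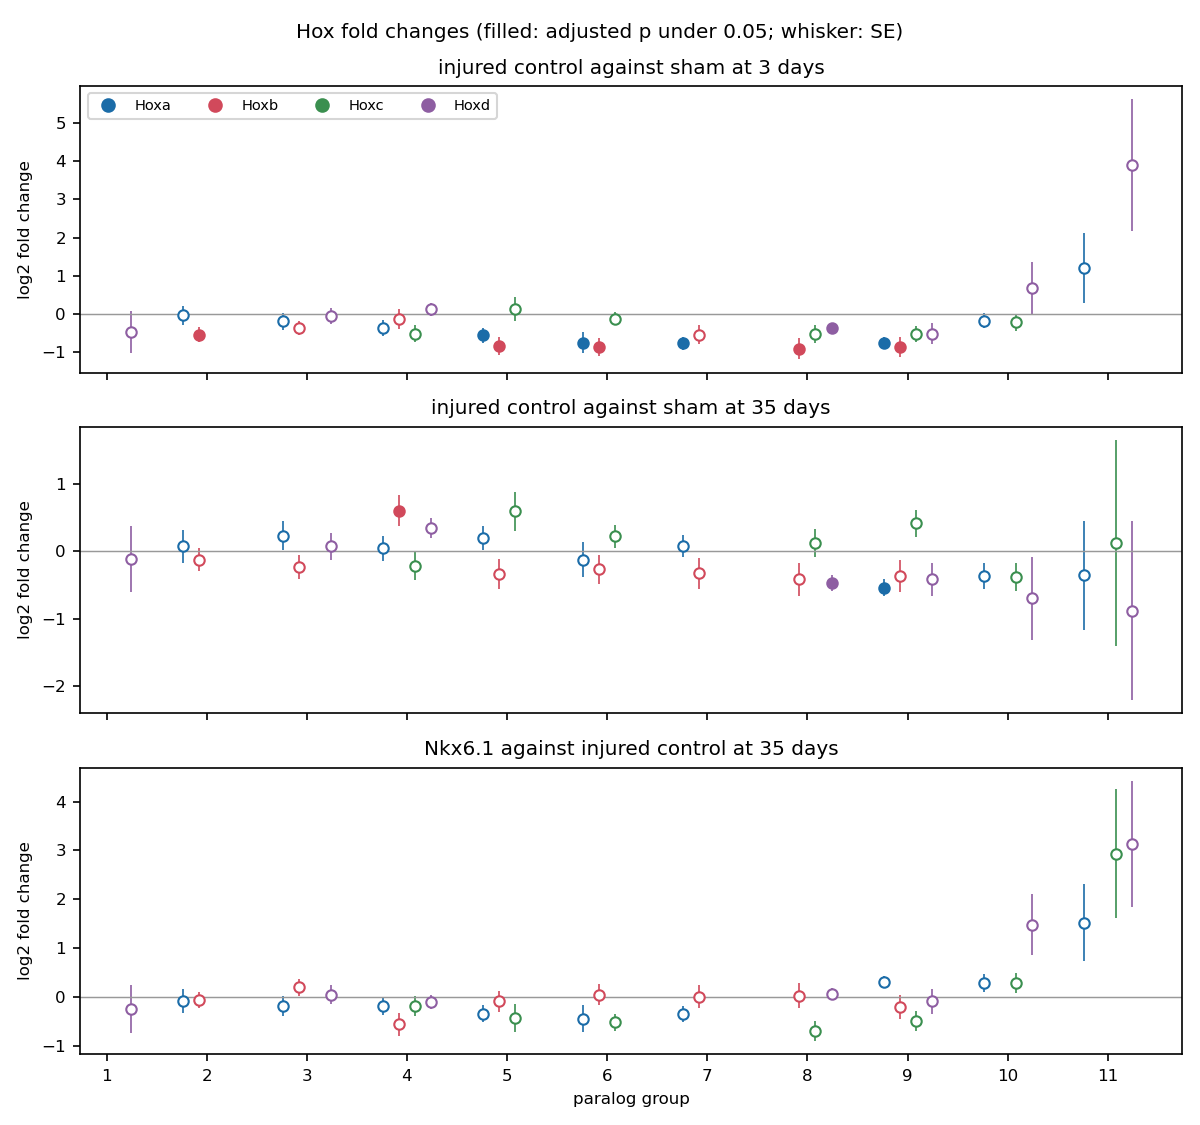
Log2 fold change of tested Hox genes against paralog group for injured control against sham at 3 and 35 days and for Nkx6.1 against injured control at 35 days; whiskers are the SE, filled points had an adjusted p under 0.05, and genes with 3 counts or fewer in a group are left out. The 10 filled points at 3 days lie in paralog groups 2 and 5 to 9, and in the Nkx6.1 comparison the highest points are Hoxd11, Hoxc11, Hoxa11 and Hoxd10.

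Replicates 1 and 4 of the injured controls at 35 days stood apart in several Hox genes, and both were among the libraries with Xist above 100 CPM. Hoxb4 stood at 28.2 and 30.7 CPM in them and at 13.6 and 13.1 in replicates 2 and 3. Hoxc8 stood at 106 and 104 CPM against 61.1 and 64.3, and Hoxc9 at 33.9 and 33.4 CPM against 17.1 and 19.8. Hoxa5 (58.9 and 57.2 against 34.4 and 36.0 CPM) and Hoxa7 (49.1 and 53.5 against 33.9 and 37.8 CPM) were also high there. The summed oligodendrocyte markers were 30800 and 34200 CPM in these 2 libraries and 21000 and 23500 in the other 2, and the astrocyte markers 11500 and 9330 against 6460 and 7730 CPM. Neuron markers were lower there, at 6930 and 4090 against 8020 and 8240 CPM. Macrophage markers were higher, at 2740 and 3320 against 1480 and 1720 CPM. Replicates 1 and 4 were not alike throughout. Fibroblast markers summed to 195 and 2160 CPM in them against 809 and 678 CPM. Schwann cell markers summed to 160 and 1130 against 309 and 586 CPM. Hoxb8 stood at 296 and 173 CPM against 227 and 174. Without both libraries, an alternative added after seeing them, 0 members were called at 35 days by edgeR's test. Hoxb4 then turned to -0.06 (adjusted p 0.867), and Hoxa9 stood at -0.41 (adjusted p 0.0851).

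From 3 to 35 days 7 of 34 members rose in injured controls and 0 fell, that is 20.6%, where 5.04% of all genes rose and 5.97% fell. The injured controls at 3 days are the same libraries that were compared with sham, so low values there enter both comparisons. Hoxa7 had the smallest p and rose from 20.5, 22.3 and 22.9 CPM to 49.1, 33.9, 37.8 and 53.5 CPM (log2 0.99 ± 0.16 SE, adjusted p 0.000253), with no overlap. Hoxa5 rose by 0.91 ± 0.18 (adjusted p 0.00176), Hoxc9 by 1.01 ± 0.2 (0.00216), Hoxc8 by 0.78 ± 0.22 (0.02) and Hoxa4 by 0.63 ± 0.2 (0.0377). Hoxb6 (0.66 ± 0.22, adjusted p 0.0471) and Hoxb2 (0.54 ± 0.18, adjusted p 0.047) passed narrowly. The groups did not overlap in 10 members, all higher, where 8.81% of all genes were higher without overlap. With the 2 libraries that stood apart left out 1 member was called, Hoxa7 at 0.7 (adjusted p 0.0115). The count was 1 with only these 2 groups in the fit, 4 with library totals, 4 with no filter on low counts, 4 without the 2 libraries that held both Xist and Ddx3y, 3 without replicate 1 at 35 days, and 4 and 3 without replicates 1 and 3 at 3 days. Of the 8 neuron markers Rbfox3 rose, and of the 5 macrophage markers Itgax rose and Spp1 fell. The difference between the injury effects at 35 and 3 days was called for 0 members by edgeR, with 6 at an unadjusted p under 0.05 and Hoxa7 leading (log2 0.85 ± 0.23 SE, adjusted p 0.115). DESeq2 called 1, Hoxa7, and 0.362% of all genes were called.

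Sham cords were compared between 3 and 35 days. By edgeR 0 of 34 members were called (0.00613% of all genes), with 1 at an unadjusted p under 0.05, and DESeq2 called 0. At 35 days 9 members were higher with no overlap and 0 lower, where 12.7% of all genes were higher and 12.4% lower. Among the 9 were Hoxa10, Hoxa11, Hoxb8, Hoxc10, Hoxd8, Hoxd9, Hoxd10 and Hoxd11. Hoxc10 stood at 50.9, 60.5 and 64.9 CPM at 3 days and 75.0, 71.6 and 73.5 CPM at 35 days (log2 0.32 ± 0.22 SE, adjusted p 0.824). Hoxa11 stood at 0.781, 2.3 and 2.53 CPM at 3 days and 4.46, 4.24 and 5.17 CPM at 35 days (log2 1.3 ± 0.91 SE, adjusted p 0.827). With only the sham groups in the fit Hoxd11 was called. Neuron markers summed to 9840 to 10600 CPM at 3 days and 11300 to 11600 CPM at 35 days, and 0 of 8 were called. These sham groups are the base of the injury comparisons, so each comparison used the sham group of its own day.

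No Hox gene passed the threshold for Gsx1 against injured control. By edgeR 0 of 34 members were called at 3, 14 and 35 days, where 0 of all genes were called, and DESeq2 called 0 members at each time. At an unadjusted p under 0.05 there were 2, 1 and 6 members. At 3 days Hoxa7 had the smallest p, with 29.7, 29.7 and 27.1 CPM under Gsx1 against 20.5, 22.3 and 22.9 CPM in injured controls (log2 0.4 ± 0.17 SE, adjusted p 1). The groups did not overlap for Hoxa7, nor for Hoxa3 and Hoxa4, all higher, where 3.84% of all genes were higher without overlap. At 14 days Hoxd10 stood at 21.5, 16.9 and 7.58 CPM under Gsx1 and at 30.0, 32.5 and 21.6 CPM in injured controls, and it was 1 of 5 members lower without overlap, where 8.49% of all genes were. Its log2 fold change was -0.87 ± 0.66 (SE, adjusted p 0.999). At 35 days no member was free of overlap, where 4.37% of all genes were. Hoxc9 had the smallest p there, at log2 -0.54 ± 0.18 (SE, adjusted p 0.194), with 14.5, 17.0, 22.5 and 17.5 CPM under Gsx1. Without injured control replicate 2, Hoxa9, Hoxb4 and Hoxc9 were called at 35 days, and the share of all genes called in that fit was not computed. The Gsx1 libraries at 35 days split in the caudal genes, with Hoxd10 at 25.3, 12.6, 31.9 and 6.9 CPM.

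At 35 days the libraries labelled Nkx6.1 had the highest group means of Hoxa11, Hoxc11, Hoxd11, Hoxc12 and Hoxc13 among the 4 groups of that day. By edgeR 0 of 34 members were called against injured controls, where 0 of all genes were, and DESeq2 called 0. At an unadjusted p under 0.05 there were 11 members, and 12.3% of all genes. There were 6 members higher without overlap, Hoxa11, Hoxc11, Hoxc12, Hoxc13, Hoxd10 and Hoxd11, and Hoxc6 and Hoxc8 were lower, where 2.03% of all genes were higher and 2.57% lower in this way. Hoxc12 and Hoxc13 passed the filter on low counts through libraries where they were high, these Nkx6.1 libraries among them. They are therefore no support against that share.

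Hoxd10 stood at 35.4, 38.7 and 31.5 CPM under Nkx6.1 and at 19.9, 11.5, 9.0 and 10.0 CPM in injured controls, a log2 fold change of 1.48 ± 0.62 (SE, adjusted p 0.374). Hoxa11 stood at 10.6, 11.2 and 9.16 CPM against 7.01, 3.37, 1.4 and 2.68 CPM. Hoxc11 stood at 5.03, 5.65 and 4.55 CPM against 1.59, 0.405, 0.664 and 0 CPM, at log2 2.93 ± 1.32 (SE, adjusted p 0.39). For Hoxd11, whose values are given above, the log2 fold change was 3.14 ± 1.29 (SE, adjusted p 0.368). For each of these genes the lowest Nkx6.1 library lay above the highest control library. Hoxc12 had 184 counts under Nkx6.1 and 1 in injured controls, a ratio of 231 after scaling with an interval of 40.9 to 9170 for counting error only, and Hoxc13 had 99 and 2 counts, a ratio of 62.1 (16.7 to 520). Hoxc8 was lower, at 59.9, 36.0 and 59.4 CPM against 106, 61.1, 64.3 and 104 CPM (log2 -0.69 ± 0.21 SE, adjusted p 0.335), and so was Hoxc6, at 15.5, 11.0 and 13.4 against 16.9, 18.6, 16.8 and 23.7 CPM (log2 -0.52 ± 0.17 SE, adjusted p 0.335). With only these 2 groups in the fit Hoxc12 was called, but there it passed the filter through the Nkx6.1 libraries alone.

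At 3 days the caudal genes overlapped between Nkx6.1 and injured controls. Hoxd10 stood at 2.08, 8.19 and 21.2 CPM under Nkx6.1 against 5.21, 17.9 and 28.9 CPM, and Hoxc12 had 57 counts against 47, a ratio of 1.1 (0.737 to 1.66, counting error only). By edgeR and by DESeq2 0 of 34 members were called (0.337% of all genes by edgeR), with 6 at an unadjusted p under 0.05. There were 4 members lower without overlap, Hoxa9, Hoxb6, Hoxb9 and Hoxc6, where 8.59% of all genes were lower in this way. Hoxb8 stood at 75.9, 47.4 and 134 CPM under Nkx6.1 against 126, 143 and 115 CPM (log2 -0.58 ± 0.28 SE, adjusted p 0.268). Neuron markers summed to 2740 to 6040 CPM under Nkx6.1 and 4440 to 6160 in injured controls, and macrophage markers to 5550 to 11600 against 3750 to 6520 CPM. Without Nkx6.1 replicate 3 at 3 days, which was the highest of its group for Hoxb8 and for the caudal genes, 5 members were called as lower. The share of all genes called without that library was not computed, so the 5 cannot be set against it. The difference between the Nkx6.1 effects at 35 and 3 days was called for 0 members by edgeR, with 7 at an unadjusted p under 0.05 and 2.3% of all genes called. DESeq2 called 1, Hoxa9, and leaving out Nkx6.1 replicate 3 at 3 days gave 10, again with no share of all genes computed. The Gsx1 effects at 35 and 3 days differed for 0 members by both tools, with 5 at an unadjusted p under 0.05.

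The TALE homeodomain proteins bind DNA together with Hox proteins, and they were called in both directions. Of 9 such genes, 2 fell and 0 rose at 3 days after injury: Pbx3 (log2 -0.62 ± 0.18 SE, adjusted p 0.00941) and Meis2 (-0.63 ± 0.21, adjusted p 0.0221). Over all genes tested 16% fell and 19.5% rose. At 35 days 4 fell and 2 rose, where 36.8% of all genes were called. Pbx3 and Meis2 stood at -0.78 ± 0.17 and -0.79 ± 0.2 (adjusted p 0.000962 and 0.00339). None of the 9 was called for Gsx1 or Nkx6.1 by edgeR.

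Of 18 Polycomb and trithorax genes tested, 3 rose and 4 fell at 3 days, and 4 rose and 3 fell at 35 days. These 7 of 18 are near the share of all genes, of which 19.5% rose and 16% fell at 3 days and 36.8% were called at 35 days. Ezh2, the methyltransferase of Polycomb complexes in dividing cells, rose at 3 days by 1.4 ± 0.2 (log2, SE, adjusted p 1.18e-05) and at 35 days by 0.6 ± 0.19 (adjusted p 0.0188). Its relative Ezh1 fell at 3 days (-0.44 ± 0.1, adjusted p 0.00182), as did the chromobox gene Cbx7 (-0.7 ± 0.14, adjusted p 0.000394).

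Of 9 tested genes of the signals that set Hox expression in the embryo, 2 rose at 3 days and 4 at 35 days after injury, and 0 fell, where 19.5% of all genes rose at 3 days and 36.8% were called at 35 days. Rarg, a retinoic acid receptor, rose by 0.84 ± 0.26 and by 1.38 ± 0.25 (log2, SE, adjusted p 0.0134 and 0.000175). Aldh1a2, which makes retinoic acid, rose by 1.56 ± 0.61 and 2.13 ± 0.61 (adjusted p 0.0478 and 0.00921). It also stands in a list of 9 genes that depend on Hox proteins in motor neurons, where it was the only gene called at 3 days. At 35 days Foxp1, the Hox partner of limb motor neurons, rose too (0.57 ± 0.15, adjusted p 0.00579). These were 2 of the 9, below the 36.8% of all genes called, and the list's median log2 fold change was -0.3. Of 5 motor neuron markers 3 fell at 3 days and 2 at 35 days, and 0 rose (median log2 -1.13 and -0.78). Over all genes tested 16% fell at 3 days and 36.8% were called at 35 days, so the 2 of 5 are near that share.

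Of 11 tested neighbours and noncoding RNAs of the clusters, 1 rose and 2 fell at 3 days after injury, where 19.5% of all genes rose and 16% fell. Skap2, which lies beside the Hoxa cluster and encodes an adaptor protein of immune cells, rose by 1.22 ± 0.16 (log2, SE, adjusted p 4.42e-06). Mira, a noncoding RNA of the Hoxa cluster, fell at 3 days (-0.7 ± 0.19, adjusted p 0.00682) and rose from 3 to 35 days in injured controls (0.95 ± 0.18, adjusted p 0.00155), as did Hoxa7. Both changes rest on the same injured controls at 3 days. Mtx2, a mitochondrial gene beside the Hoxd cluster, fell by 0.3 ± 0.11 at 3 days (adjusted p 0.0371). Hotair was not called for injury at 3 or 35 days (adjusted p 0.143 and 0.952), with 1 count in sham cords and 39 in injured controls at 3 days, 38 of them in 1 library, and 9 and 15 counts at 35 days.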

How the data were processed

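The authors deposited raw read counts per gene symbol, whole numbers without normalization, with 1 column per library (columns with no sample: 0). The submitters' processing notes list HISAT2, SAMtools, HTSeq and DESeq2 with the builds mm10 and GRCm38, and give no role or version. For annotation, strand setting and reads that match several genes, the steps were not given in the sources used here. Genes were tested with edgeR 4.0.16 (R 4.3.3), the quasi-likelihood F test with TMM scaling, all 10 groups in 1 model (22 residual degrees of freedom) and Benjamini-Hochberg adjustment over the 16314 genes that passed its filter (minimum count 10, minimum total 15). A gene was called at an adjusted p under 0.05. CPM were computed from the deposited counts with TMM-scaled totals, and log2 fold changes are edgeR's. DESeq2 1.42.0 was an alternative. The tests were tested on simulated data. Values of some genes are not reported or plotted here. Members and gene lists were chosen with earlier results of these data known. The rule for named genes took the members with the smallest adjusted p, the most abundant and the most caudal member of each cluster, and a caudal reference, and the other genes named were chosen after their values were seen. Counting intervals are 95%, and a count of 0 allows 3. The labels do not say whether replicates were separate mice, and a p-value here reflects only the spread among these libraries, which may be technical. No 2 libraries of a group agreed within counting noise (lowest chi-square per degree of freedom 3.82).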

Additional observations from a re-analysis of the deposited data

Results flagged for a closer look

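In the 2 groups of 4 libraries, 66 sets of 4 values were searched for a library far from the other 3 (Dixon's criterion at its 95% critical value), and chance alone flags about 1 in 20 sets. In injured controls at 35 days, Hoxa2 stood at 7.51 CPM and Hoxa3 at 20.3 CPM in replicate 4, the highest of their groups, with the other 3 libraries at 3.84 to 4.3 and 9.47 to 11.1 CPM. That library held both Xist and Ddx3y. In the Gsx1 group at 35 days, Hoxb6 at 45.1 CPM and Hoxb8 at 231.0 CPM stood apart as the highest values, both in replicate 3, where the other 3 libraries reached at most 32.7 and 206 CPM. Hoxd8 was lowest at 44.6 CPM in replicate 1, against 50.2 to 50.6 CPM.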

How the results depend on the processing

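Counts of members called were compared over the alternatives. The share of all genes called was not computed for the alternatives, so these counts cannot be set against it. For injury at 3 days 10 were called, 16 with only the 2 groups in the fit, 6 without the 2 libraries holding Xist and Ddx3y, 6 with a muscle covariate, 1 with a neuron covariate, and 4 to 11 with 1 library left out. For injury at 35 days 3 were called, 0 with the neuron covariate, 0 without libraries 1 and 4 of the injured controls, and 2 to 6 with 1 library left out. Without libraries 1 and 4 the fold change of Hoxb4 turned to -0.06. Over time in injured controls 7 were called, 4 with library totals, 4 without a filter, 1 with only the 2 groups, 3 with a replicate block, 4 without the libraries holding Xist and Ddx3y, 1 without libraries 1 and 4, and 3 to 8 with 1 library left out. The block left 10 and 2 calls for injury at 3 and 35 days, and the numbers did not pair the samples: 7 of 22 same-numbered pairs correlated above 0.1 (-0.59 to 0.42). Comparisons with 0 calls reached 1 with only the groups compared for Nkx6.1 at 35 days and for sham over time. With 1 library left out they reached 0 to 3 for Gsx1 at 35 days, 0 to 5 for Nkx6.1 at 3 days, 0 to 1 for injury with time and 0 to 10 for Nkx6.1 with time, and the last 2 had 1 call each by DESeq2. Members correlated with Hoxc10 numbered 9 to 11 over the planned settings and the neuron mean. The 20 calls gave 340 values over the alternatives, of which 229 kept the call, 110 lost it and 1 (Hoxb4) reversed. Alternatives made 50 calls of members not called otherwise, in 37 pairs of member and comparison. The neuron covariate and the setting without libraries 1 and 4 were chosen after seeing the data, and the causes of these changes were not tested. Depth limits those members of groups 11 to 13 that had few counts or none, at 3 counts for a group of libraries. Hoxd11 and Hoxa11 were less limited by it, with 753 and 445 counts in the Nkx6.1 group at 35 days.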
